A study of Mus musculus with 186 samples.

Results

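The mitochondrial genome of the mouse encodes 37 genes, and all 37 had a line in the table of transcript abundances, found by the prefix mt- of their names among 55421 gene lines. There are 13 protein genes, 2 ribosomal RNA (rRNA) genes and 22 transfer RNA (tRNA) genes. Inner cells of CD-1 mouse embryos were freed of the outer layer by immunosurgery and sequenced singly. Fresh embryos were at stage E3.25, E3.75 or E4.0, which count days of embryonic development. Others were collected at E2.75 and kept in KSOM medium for 16 or 24 hours. That medium held either DMSO, the solvent, or 10 µM of the phosphoinositide 3-kinase inhibitor LY294002 (LY). The groups are called 16h DMSO, 16h LY, 24h DMSO and 24h LY, and the labels name no transgene or mutant allele in any of them.

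There were 169 cells in 18 experiments, an experiment being the cells of a group with the same collection date. E3.25 had 19 cells, E3.75 22 and E4.0 14, from 2 experiments each. 16h DMSO had 31, 16h LY 31, 24h DMSO 28 and 24h LY 24, from 3 experiments each. All dates of the 16h groups fell later than those of the 24h and fresh groups, so culture time and date cannot be told apart. Each experiment pooled several litters, so its cells are not replicates and errors below are spreads between experiments. The pluripotency factor gene Pou5f1 had a transcripts-per-million (TPM) value of 1 or more in 169 of 169 cells, and the trophectoderm factor gene Cdx2 in 18. Among trophectoderm marker genes the cells with such a value numbered from 2 (Elf5) to 159 (Krt8). The depth of each cell is unknown because TPM keeps none, and 3806 to 10220 genes per cell (median 6584) had a TPM of 1 or more.

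Mitochondrial DNA is copied into long RNAs from both strands. The tRNAs sit between the other genes and are cut out, which frees the messenger and ribosomal RNAs, and most of these then receive short poly(A) tails. The 13 proteins are subunits of respiratory complexes I, III and IV and of ATP synthase, while all other mitochondrial proteins are encoded in the nucleus. Before implantation the embryo lives on mitochondria inherited from the egg. The libraries here were primed on poly(A) at the 3′ end of RNA, and short cDNA was removed, per the labels' protocols.

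Of the 37 genes, 28 lie on the strand here called heavy and 9 on the other, called light: mt-Nd6 and the tRNA genes mt-Tq, mt-Ta, mt-Tn, mt-Tc, mt-Ty, mt-Ts1, mt-Te and mt-Tp. The largest tRNA value of the data came from mt-Ts1, the gene of a serine tRNA, and the following sequences are shown because this gene overlaps a protein gene on the other strand. It lies at chrM:6870-6938 on the minus strand and shares 3 bases with the end of mt-Co1 at chrM:5328-6872 on the plus strand (GENCODE M21, GRCm38). Capitals mark the 3 shared bases, which on the plus strand are the stop codon of mt-Co1. All sequences are written 5′ to 3′.
mt-Co1, last 30 bases, chrM:6843-6872, plus strand: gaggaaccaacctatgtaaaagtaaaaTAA
mt-Ts1, last 30 bases, chrM:6870-6899, minus strand: ttttagggggttcgattccttcctttcTTA
The same bases of mt-Ts1 read on the plus strand: TAAgaaaggaaggaatcgaaccccctaaaa

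The plus-strand reading starts inside mt-Co1 and goes on past its end. As background, the human MT-CO1 messenger is known to run past its stop codon into sequence antisense to this tRNA. The library kit does not mark strand, so reads of mt-Ts1 and of RNA from the opposite strand cannot be told apart, and its value is that of the locus. Whether such read-through contributes to the value was not tested.

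A second set of sequences is shown because it limits at least 7 of the 13 protein genes. A block of 7 pseudogenes on nuclear chromosome 1, at chr1:24611535-24616197 on the minus strand, copies part of the mitochondrial genome. Gm28437 (mt-Co3), Gm28661 (mt-Co2), Gm10925 (mt-Atp6), Gm10222 (mt-Nd4l) and Gm28439 (mt-Nd4) had 0 mismatches to the gene in brackets over their whole length. Gm28438 differed from mt-Nd3 by T3C, and Gm29216 from mt-Co1 by 6 bases within its 492 bases, T1056A, C1057T, A1059G, A1060G, C1062A and A1066T (the member's base, its position from the first base of that gene, the copy's base). Capitals mark these differences.
mt-Co1, 30 bases from base 1054, chrM:6381-6410, plus strand: ggTCtAAcCggaAttgttttatccaactca
Gm29216, same stretch, chr1:24616168-24616197, minus strand: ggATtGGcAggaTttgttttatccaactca
mt-Nd3, first 30 bases, chrM:9459-9488, plus strand: atTaacctgtacactgttatcttcattaat
Gm28438, same stretch, chr1:24613090-24613119, minus strand: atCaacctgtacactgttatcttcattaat

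Of all 50-base stretches in mt-Co2, 100% also occur in a nuclear transcript of the annotation, and the share was 99.9% in mt-Co3, 99.5% in mt-Atp6, 98.8% in mt-Nd4l, 97.99% in mt-Nd3, 62.2% in mt-Nd4 and 51.1% in mt-Co1. It was 8.19% in mt-Nd2, 7.61% in mt-Nd5, 1.04% in mt-Rnr2 and 0% in mt-Nd1, mt-Atp8, mt-Nd6, mt-Cytb, mt-Rnr1 and the tRNA genes. The sources used here do not say how the authors' estimates shared reads between a gene and its copy, so levels of the first 7 genes are uncertain. Only annotated transcripts were searched, and nuclear DNA between the 7 pseudogenes was not compared. mt-Ts1 and mt-Atp8 lie between genes that the block copies, so a share of 0% does not show that they lack a nuclear copy.

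The 37 genes made up 10.1% of a cell's TPM on average (median 9.22%), and cells ranged from 0.362% to 32.5%. Protein genes gave 5.058% and tRNA genes 5.001%, while the 2 rRNA genes gave 0.0600%. The share was spread widely inside single groups. At E3.25 it ran from 0.436% to 25.8% (median 3.05%), at E3.75 from 1.14% to 32.3% (median 10.7%) and at E4.0 from 1.20% to 32.5% (median 15.8%). In 16h DMSO it ran from 3.52% to 24.7% (median 14.0%) and in 16h LY from 1.35% to 21.05% (median 10.4%). 24h DMSO cells ran from 0.362% to 27.0% (median 4.34%) and 24h LY cells from 0.431% to 24.1% (median 3.46%). A share under 5% was found in 1 of 31 cells of 16h DMSO, 10 of 31 of 16h LY, 16 of 28 of 24h DMSO and 16 of 24 of 24h LY.

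**Figure D1:**
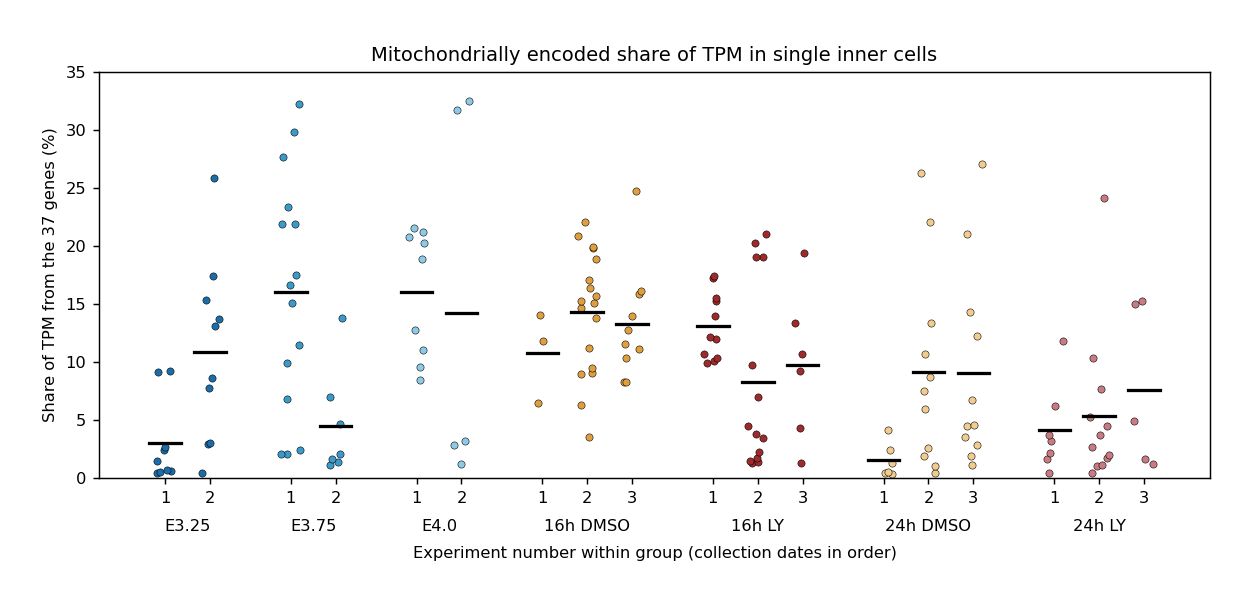
Share of TPM from the 37 mitochondrially encoded genes (percent, vertical axis) in each of 169 cells, by group and experiment (horizontal axis). Points are cells and bars are experiment means, which run from 1.55% in the first 24h DMSO experiment to 16.1% in the first experiments of E3.75 and E4.0.

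Experiment means of this share, the mean over cells of each collection, differed as much between dates of a group as between groups. At E3.25 the 2 experiments stood at 3.04% and 10.8%, at E3.75 at 16.1% and 4.54%, and at E4.0 at 16.1% and 14.3%. In 16h DMSO the 3 experiments stood at 10.8%, 14.3% and 13.3%, and in 16h LY at 13.1%, 8.31% and 9.73%. In 24h DMSO they stood at 1.55%, 9.17% and 9.10%, and in 24h LY at 4.18%, 5.41% and 7.63%. The 16h and 24h experiments did not overlap within either arm, while the LY and DMSO experiments overlapped at both times. E4.0 lay above E3.25 without overlap, and E3.75 overlapped both. Group means were 12.8% ± 1.83 (SD, n = 3 experiments) in 16h DMSO, 10.4% ± 2.49 in 16h LY, 6.61% ± 4.38 in 24h DMSO and 5.74% ± 1.75 in 24h LY. Fresh stages averaged 6.95% ± 5.52 (SD, n = 2), 10.3% ± 8.15 and 15.2% ± 1.26 in order of age. No p is given for this sum.

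The second E4.0 experiment holds 5 cells that fall far apart. Its 3 cells of sequencing run 1 averaged 2.41% and its 2 cells of run 2 averaged 32.1%. In the first E3.75 experiment the 6 cells of run 1 averaged 9.36% and the 9 of run 2 averaged 20.5%, and in the second E3.75 experiment the 4 cells of run 1 averaged 6.79% and the 3 of run 2 averaged 1.54%. By cells of run 1 alone E4.0 exceeded E3.25 by 0.620 percentage points, and by cells of run 2 alone by 18.6, against 8.23 by both. The part of the run in the level was not tested.

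Date by date, LY lay above DMSO on the first date of each culture time and below it on the other dates. At 16 hours the share with LY minus that with DMSO was 2.37, -6.03 and -3.57 percentage points on the 3 dates, and at 24 hours 2.63, -3.75 and -1.47. Protein genes alone gave 2.09, -3.15 and -1.12 points at 16 hours and 1.75, -2.14 and -0.322 at 24 hours. tRNA genes gave 0.204, -2.85 and -2.44 points, and 0.867, -1.62 and -1.13. Protein and tRNA genes thus had the same sign on all 6 dates. The first 16h date rests on 3 DMSO cells and the first 24h date on 6.

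**Figure D2:**
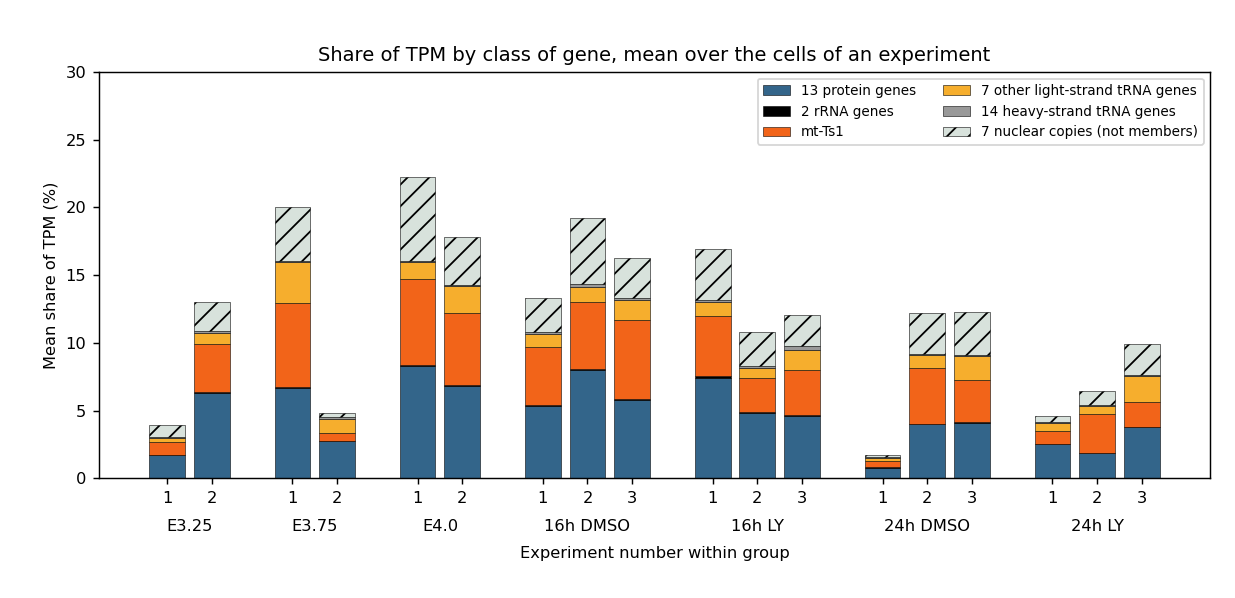
Mean share of TPM (percent) by class of gene in each of 18 experiments, as stacked bars that start at 0, with the 7 nuclear copies stacked on top. Protein genes and mt-Ts1 make up most of each bar of members, and heavy-strand tRNA genes reach at most 0.266%.

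Protein and tRNA genes shared the total about equally in TPM, and very unequally in TPM times length. Protein genes held 49.99% of the TPM of all 37 genes, tRNA genes 49.4% and rRNA genes 0.593%. TPM divides by length, and tRNA genes have 59 to 75 bases where protein genes have 204 to 1824. The same amount of sequence counts 22.4 times more in mt-Ts1 than in mt-Co1. After multiplying each TPM by the annotated length, tRNA genes made up 6.74% of the members' sum in the mean cell, against 47.5% before. Tiny effective lengths in the authors' estimates could change this further, and those lengths are not in the files used here.

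mt-Ts1 alone averaged 36770 TPM, or 36.3% of the TPM of the 37 genes, and it was listed at 0 in 4 of 169 cells. The other light-strand tRNA genes averaged 440.2 TPM (mt-Tp) to 3618 TPM (mt-Te) and had a TPM of 1 or more in 106 to 156 cells. In contrast, the 14 heavy-strand tRNA genes averaged 0.346 TPM (mt-Tr, arginine) to 349 TPM (mt-Tt, threonine) and reached 1 TPM in 1 to 106 cells. The median cell was listed at 0 for 12 of these 14, all but mt-Tl1 and mt-Tt. Light-strand tRNA genes thus held 48.3% of the members' TPM and heavy-strand ones 1.15%. Since the kit does not mark strand, the values of all 37 genes are those of their loci, as for mt-Ts1. Light and heavy name the annotated strand here and below, not the strand of the RNA that was read. Values of 0 can be failed estimates as well as absent RNA.

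Light-strand tRNA genes correlated across cells with messengers beside them, and in a case also with one far away. The Spearman correlation of mt-Ts1 with mt-Co1 was 0.86 over 169 cells, and that of mt-Te, the glutamate tRNA gene, with the neighbouring mt-Nd6 on its own strand was 0.75. mt-Te shares no base with mt-Nd6 and borders it directly. With mt-Cytb, on its other side, mt-Te correlated at 0.40. mt-Tq correlated at 0.64 with the nearby mt-Nd1 and at 0.81 with the distant mt-Nd3, and 10 protein genes correlated with each other at a median of 0.82. The 4 neighbours mt-Ta, mt-Tn, mt-Tc and mt-Ty (alanine, asparagine, cysteine and tyrosine tRNAs), which lie between mt-Nd2 and mt-Co1, correlated with each other at 0.66 to 0.78, and mt-Ta with mt-Nd2 at 0.40 and with mt-Co1 at 0.40. These cells share libraries and a fixed TPM total, and the correlations are descriptions that show nothing particular to neighbours.

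**Figure D3:**
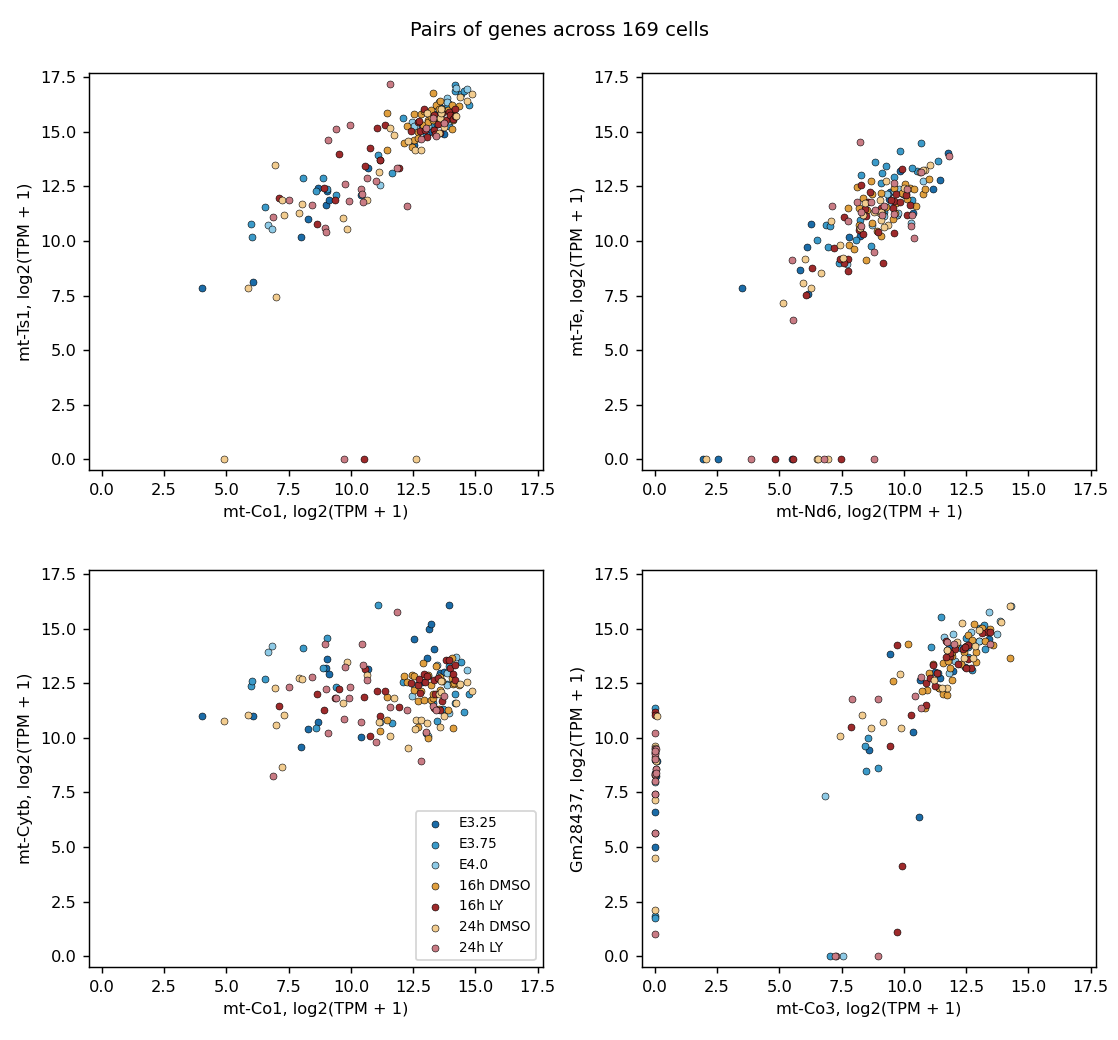
Levels of 4 pairs of genes in 169 cells, as log2(TPM + 1) on both axes, coloured by group. mt-Ts1 against mt-Co1 (Spearman 0.86) lines up along a diagonal apart from 4 cells with mt-Ts1 listed at 0. Gm28437 against mt-Co3 (0.88) does so in the 129 cells where mt-Co3 reached 1 TPM. The other cells, 28 of them with mt-Co3 at 0, stand near the left edge. mt-Te against mt-Nd6 lines up apart from 13 cells listed at 0, and mt-Cytb against mt-Co1 does not (0.15).

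Per protein gene, levels below are means over the cells of an experiment of log2(TPM + 1), in date order within each group. Comparisons of a gene between groups used a limma model of the 18 experiment means over 11680 genes with Benjamini-Hochberg adjustment, and an adjusted p under 0.05 is called past the threshold. A mean of logs does not separate the share of cells with a value from the level in those cells, and fewer mitochondria and less RNA per mitochondrion cannot be told apart.

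mt-Nd1, mt-Nd2 and mt-Nd5 encode membrane subunits of complex I, which passes electrons from NADH into the chain. mt-Nd1 stood at 10.16 and 13.04 at E3.25, at 12.92 and 10.89 at E3.75 and at 13.65 and 11.87 at E4.0. After culture it stood at 13.34, 13.81 and 13.47 in 16h DMSO, 13.85, 12.36 and 12.30 in 16h LY, 10.01, 11.72 and 12.53 in 24h DMSO and 11.28, 11.06 and 12.32 in 24h LY. It was the protein gene with the highest mean TPM, 9717, and the 24h DMSO experiments all lay below the 16h DMSO ones. mt-Nd2 had 8.0 and 10.75 at E3.25, 11.32 and 8.83 at E3.75 and 12.36 and 10.15 at E4.0. Cultured, it had 12.35, 12.81 and 12.47 in 16h DMSO, 12.98, 11.25 and 11.79 in 16h LY, 7.48, 9.70 and 10.60 in 24h DMSO and 10.08, 9.69 and 10.54 in 24h LY. Its 24h experiments lay below the 16h ones in both arms. mt-Nd5 read 4.78 and 6.27 at E3.25, 7.53 and 5.68 at E3.75 and 7.99 and 7.01 at E4.0. Cultures gave it 8.42, 8.59 and 7.45 in 16h DMSO, 8.58, 7.17 and 6.87 in 16h LY, 5.46, 6.64 and 7.32 in 24h DMSO and 7.69, 5.84 and 7.36 in 24h LY. With 233 TPM on average it was well below mt-Nd1 per length, and its LY experiments at the 2 times overlapped.

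mt-Nd3, mt-Nd4 and mt-Nd4l are further complex I subunits, and mt-Nd4l overlaps mt-Nd4 by 7 bases. mt-Nd3 stood at 3.17 and 3.57 at E3.25, at 9.55 and 1.28 at E3.75 and at 11.52 and 4.48 at E4.0. In culture it stood at 10.52, 11.73 and 11.06 in 16h DMSO, 11.26, 8.10 and 9.79 in 16h LY, 0.00, 7.14 and 6.82 in 24h DMSO and 2.59, 4.18 and 6.11 in 24h LY. Its means spanned 11.73 log2 units over the 18 experiments, the widest span of the protein genes, and it was listed at 0 in 50 of 169 cells. mt-Nd4 read 6.50 and 9.87 at E3.25, 10.09 and 4.86 at E3.75 and 11.32 and 8.28 at E4.0. Its cultured experiments read 11.24, 11.15 and 10.57 in 16h DMSO, 11.22, 9.83 and 9.70 in 16h LY, 4.16, 8.91 and 8.51 in 24h DMSO and 6.69, 7.56 and 6.68 in 24h LY. The 24h values again lay below the 16h values in both arms. mt-Nd4l had 1.45 and 1.51 at E3.25, 2.61 and 0.00 at E3.75 and 4.75 and 1.805 at E4.0. With culture it had 7.77, 5.16 and 5.78 in 16h DMSO, 4.81, 2.89 and 3.16 in 16h LY, 0.00, 1.77 and 3.24 in 24h DMSO and 0.00, 0.96 and 0.00 in 24h LY. It averaged 73.8 TPM and was listed at 0 in 104 cells, and its copy Gm10222 had a TPM of 1 or more in 84 of those 104.

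mt-Nd6 is the complex I subunit encoded on the light strand. It stood at 6.07 and 9.01 at E3.25, at 9.22 and 8.27 at E3.75 and at 9.498 and 9.47 at E4.0. Cultured cells gave 9.85, 9.36 and 8.76 in 16h DMSO, 9.08, 7.89 and 8.26 in 16h LY, 7.05, 8.14 and 8.52 in 24h DMSO and 9.60, 7.88 and 8.80 in 24h LY. It was above 0 in all 169 cells and spanned 3.78 log2 units over the experiments. Its correlation with mt-Nd5, with which it shares 14 bases on opposite strands, was 0.74 across cells.

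mt-Cytb encodes cytochrome b of complex III and had the lowest median correlation with the other protein genes. Its means were 11.57 and 13.88 at E3.25, 11.90 and 13.30 at E3.75 and 12.22 and 13.13 at E4.0. After culture they were 11.61, 12.24 and 11.91 in 16h DMSO, 12.48, 12.15 and 12.04 in 16h LY, 11.35, 11.36 and 11.51 in 24h DMSO and 13.09, 10.85 and 12.29 in 24h LY. It spanned 3.02 log2 units, the narrowest span of the protein genes, beside 3.78 in mt-Nd6, 3.81 in mt-Nd5 and 3.84 in mt-Nd1. Across cells its correlation with the other 12 protein genes was 0.06 to 0.50 (median 0.32), where 10 protein genes other than mt-Cytb, mt-Nd6 and mt-Nd4l correlated among themselves at 0.65 to 0.93 (median 0.82). The genes left out came nearest to mt-Cytb, with medians of 0.51 (mt-Nd6) and 0.49 (mt-Nd4l) over their other 12 protein genes. mt-Cytb made up 7.10% ± 0.593 (SD, n = 3) of the protein genes' TPM in 16h DMSO, 15.6% ± 6.41 in 16h LY, 30.98% ± 22.7 in 24h DMSO and 37.3% ± 15.5 in 24h LY. Among fresh cells it held 39.7% ± 0.0793 (SD, n = 2) at E3.25. E3.75 had 39.9% ± 35.5 and E4.0 23.7% ± 24.1, each with its 2 experiments far apart. Single cells ran from 2.49% to 80.6%, with a correlation of -0.67 to the summed share. The protein genes' TPM divides the first measure and adds to the second. A negative correlation was thus favoured by their definition, and no conclusion is drawn from it.

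mt-Co1, mt-Co2 and mt-Co3 encode the catalytic core of cytochrome c oxidase, complex IV. mt-Co1 stood at 9.10 and 12.08 at E3.25, at 12.82 and 8.35 at E3.75 and at 13.31 and 10.71 at E4.0. Its cultured means were 13.37, 13.15 and 12.87 in 16h DMSO, 13.44, 11.54 and 11.02 in 16h LY, 7.99, 11.56 and 12.20 in 24h DMSO and 10.10, 10.69 and 10.93 in 24h LY. All 24h experiments lay below the 16h ones of their arm. mt-Co2 had 9.42 and 11.69 at E3.25, 12.53 and 10.12 at E3.75 and 13.75 and 11.66 at E4.0. With culture came 12.24, 12.98 and 12.89 in 16h DMSO, 12.82, 11.29 and 11.73 in 16h LY, 5.46, 11.54 and 12.13 in 24h DMSO and 6.08, 7.26 and 11.14 in 24h LY. One 24h DMSO and a pair of 24h LY experiments lay far below the rest. mt-Co3 read 4.70 and 9.23 at E3.25, 10.43 and 4.70 at E3.75 and 12.90 and 7.96 at E4.0. Cultured experiments read 11.74, 12.35 and 11.49 in 16h DMSO, 11.91, 8.78 and 9.34 in 16h LY, 1.40, 9.22 and 8.51 in 24h DMSO and 2.57, 4.38 and 7.78 in 24h LY. mt-Co3 was listed at 0 in 28 cells, in all of which its copy Gm28437 had a TPM of 1 or more.

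mt-Atp8 and mt-Atp6 encode 2 membrane subunits of ATP synthase and share 43 bases. mt-Atp8 stood at 5.84 and 8.59 at E3.25, at 10.79 and 3.76 at E3.75 and at 11.69 and 7.98 at E4.0. It then stood at 11.09, 11.81 and 11.78 in 16h DMSO, 12.33, 9.59 and 10.93 in 16h LY, 3.29, 7.56 and 8.15 in 24h DMSO and 3.91, 4.99 and 7.89 in 24h LY. mt-Atp8 has no 50-base stretch in an annotated nuclear transcript, and its 24h values lay below its 16h values in both arms. mt-Atp6 had 7.01 and 9.63 at E3.25, 11.71 and 4.87 at E3.75 and 12.91 and 8.62 at E4.0. In the cultures it had 12.08, 12.72 and 12.67 in 16h DMSO, 12.88, 11.24 and 11.72 in 16h LY, 2.52, 9.23 and 9.88 in 24h DMSO and 6.99, 8.31 and 9.71 in 24h LY. The pair correlated at 0.93 across cells, the closest of all protein pairs.

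mt-Rnr1 and mt-Rnr2 are the RNAs of the small and large mitochondrial ribosome subunits. mt-Rnr1 stood at 2.28 and 5.74 at E3.25, at 6.66 and 2.92 at E3.75 and at 8.64 and 3.83 at E4.0. Its cultured values were 7.51, 7.72 and 7.44 in 16h DMSO, 7.49, 4.49 and 7.25 in 16h LY, 1.74, 5.18 and 5.87 in 24h DMSO and 3.79, 3.66 and 5.04 in 24h LY. The DMSO arms did not overlap between the 2 times and the LY arms did. mt-Rnr2 had 3.70 and 6.60 at E3.25, 7.88 and 2.62 at E3.75 and 9.05 and 4.44 at E4.0. It read 8.58, 9.16 and 8.98 in 16h DMSO, 9.87, 7.54 and 7.78 in 16h LY, 1.18, 6.55 and 7.10 in 24h DMSO and 6.06, 6.39 and 6.30 in 24h LY. They averaged 175 and 425 TPM, below all protein genes but mt-Nd4l for mt-Rnr1, and below all but mt-Nd4l and mt-Nd5 for mt-Rnr2.

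**Figure D4:**
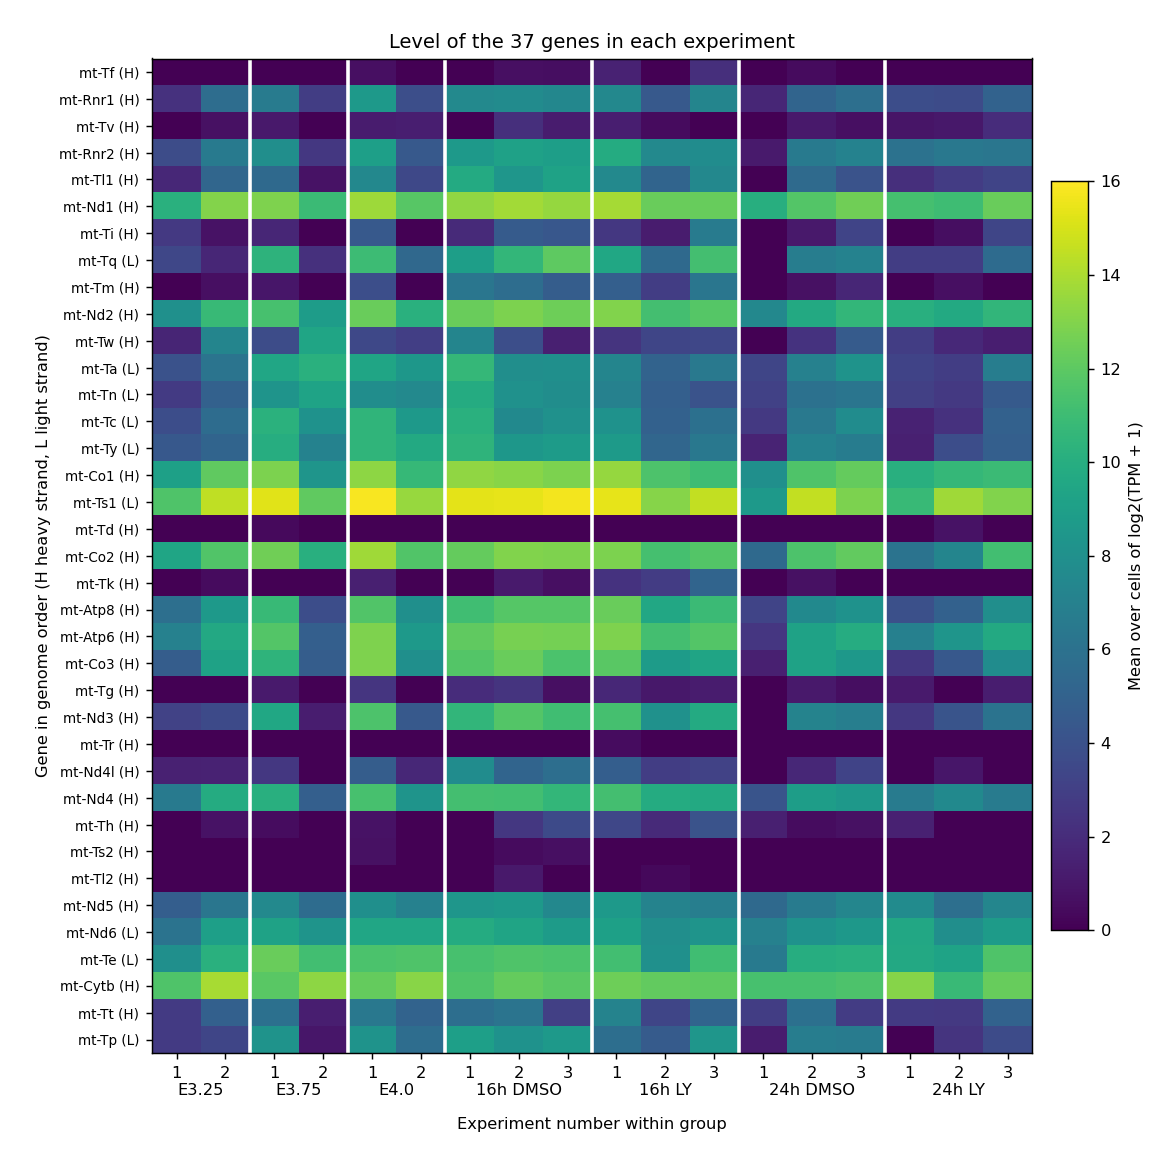
Mean over cells of log2(TPM + 1) (colour) of the 37 genes, in genome order from top to bottom, in each of 18 experiments. mt-Ts1, mt-Nd1 and mt-Cytb are bright in most columns, and most heavy-strand tRNA genes are dark in most columns. The first 24h DMSO experiment is dim for most genes other than mt-Cytb. The second E3.75 experiment is dim for many protein genes, but not for mt-Cytb or for mt-Te (11.18), mt-Ta (10.19), mt-Tw (9.40) and mt-Tn (9.27).

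Of the 37 genes, 32 passed the filter on low values, which asked for 25% of cells with a TPM of 1 or more in any 1 group, and were tested. These were the 13 protein genes, both rRNA genes, the 8 light-strand tRNA genes and 9 heavy-strand ones (mt-Tv, mt-Tl1, mt-Ti, mt-Tm, mt-Tw, mt-Tk, mt-Tg, mt-Th and mt-Tt). The other 5, mt-Tf, mt-Td, mt-Tr, mt-Ts2 and mt-Tl2, reached 1 TPM in 1 to 9 cells. Of the tested genes 4 passed the filter through 16h groups alone, which favours a high value there. mt-Tk passed through 16h LY, where 12 of 31 cells had a TPM of 1 or more, mt-Tv and mt-Tg through 16h DMSO, with 8 of 31 cells each, and mt-Th through both, with 11 and 12 of 31 cells. Their differences from the 16h groups are given as descriptions.

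Most tested genes differed in the same direction between the culture times. They did so as well between 16h DMSO and E3.25, where 30 of 32 were higher in 16h DMSO. The 2 DMSO comparisons share the 3 experiments of 16h DMSO. In 24h DMSO, all 32 had a lower mean than in 16h DMSO, with a median difference of -3.14 against -0.29 over all genes tested. Among them mt-Tv and mt-Tg were tested only through 16h DMSO and mt-Th only through the 16h groups, which favoured this direction. Without the filter 35 of 37 genes had a lower and 1 a higher mean, 20 were lower at an unadjusted p under 0.05, and the median was -2.63. None of the 32 passed the adjusted threshold in limma, where 0.00856% of all genes did. At an unadjusted p under 0.05, 24 were lower (10.2% of all genes) and 0 higher (0.616%). The experiment means of 23 did not overlap and were lower at 24 hours, against 14.3% of all genes (2.16% were higher so), and these 23 included all 13 protein genes and both rRNA genes. mt-Nd3 differed by -6.45 ± 1.88 (SE), mt-Co3 by -5.48 ± 1.81, mt-Atp6 by -5.28 ± 1.59 and mt-Atp8 by -5.23 ± 1.47 (adjusted p = 0.307, 0.344, 0.325 and 0.282 in limma). mt-Nd4l, at -4.56 ± 0.93, had the smallest p of the protein genes (adjusted p = 0.107). mt-Nd1 differed by -2.12, mt-Co1 by -2.55 and mt-Nd2 by -3.29 (adjusted p = 0.355, 0.402 and 0.207). mt-Cytb differed by -0.51 ± 0.58 (adjusted p = 0.830).

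Among the tRNA genes the smallest p of this comparison belonged to mt-Tm, the methionine tRNA gene, with a difference of -4.78 ± 0.88 (limma adjusted p = 0.0617). mt-Tl1, a leucine tRNA gene next to mt-Rnr2, differed by -5.95 ± 1.32 and mt-Tn by -3.52 ± 0.90 (adjusted p = 0.178 and 0.227). mt-Tl1 stood at 9.81, 8.43 and 9.24 in 16h DMSO and at 0.00, 5.56 and 4.08 in 24h DMSO. Without the first 24h DMSO experiment, 9 of 32 were lower at an unadjusted p under 0.05 and the median difference was -1.65. With the log taken of the mean TPM rather than in each cell, these were 10 and -1.44. Quantile normalization moved the median of all genes to 0.05 and that of the members to -2.71. mt-Tm passed the threshold only when an experiment of another group was left out, E4.0 or the second 16h LY experiment, which changes the shared estimate of the spread (lowest adjusted p = 0.0258). Genes with a TPM of 1 or more numbered 8084 ± 1655 per cell (SD, n = 3) in 16h DMSO and 6454 ± 648 in 24h DMSO. The 16h DMSO experiments stood at 9995 (from 3 cells), 7156 and 7102, and those of 24h DMSO at 5726, 6668 and 6969. The part of this in the result was not tested.

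In the LY arm, 24 against 16 hours, 29 of 32 had a lower mean, with a median of -2.21 against -0.18 over all genes. 1 of the 32 passed the threshold, mt-Tk, the lysine tRNA gene, where 0.00856% of all genes did. Since it was tested only through its values in 16h LY, the filter favoured this difference and the call supports nothing. It was listed at 0 in all 24 cells of 24h LY and had a TPM of 1 or more in 12 of 31 cells of 16h LY, with experiment means of 2.34, 2.86 and 5.16 (adjusted p = 0.0271). The call was lost without any 1 of the 24h LY experiments (adjusted p = 0.0835 to 0.246), and it was kept without any 1 of the 16h LY experiments (0.00398 to 0.0299). Leaving out an experiment of another group, which changes the shared estimate of the spread, gave 0.0275 to 0.0593. By cells of run 2 alone the adjusted p was 0.282. mt-Tm passed as well without the second 16h LY experiment, and mt-Tc by cells of run 1. At an unadjusted p under 0.05, 17 were lower (8.02% of all genes) and 0 higher (1.37%), which is 17 of 32 beside 9.39% in both directions, and the means of 17 did not overlap and were lower (11.9%). The 29 lower means and both counts of 17 include mt-Tk and mt-Th, tested only through 16h groups, so the filter favoured these counts. mt-Atp8 differed by -5.35 ± 1.47, mt-Co3 by -5.10 ± 1.81 and mt-Nd3 by -5.42 ± 1.88 (adjusted p = 0.380, 0.392 and 0.392 in limma). The 3 neighbours mt-Nd6, mt-Te and mt-Cytb differed by 0.35 ± 0.68, 0.11 ± 0.89 and -0.15 ± 0.58. mt-Tm differed by -4.46 and mt-Th, the histidine tRNA gene, by -2.62 (adjusted p = 0.191 and 0.380). Of these, mt-Th was tested only through the 16h groups, so the filter favoured its difference. Leaving out the first 16h LY or the first 24h LY experiment left 9 lower at an unadjusted p under 0.05, cells of run 2 alone left 7, and the log of the mean TPM left 6. Without the filter 14 of 37 were lower, with a median of -1.96. Cells of run 1 alone gave a difference in summed share of -7.53 percentage points and those of run 2 -2.13, against -4.65 by both.

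**Figure D5:**
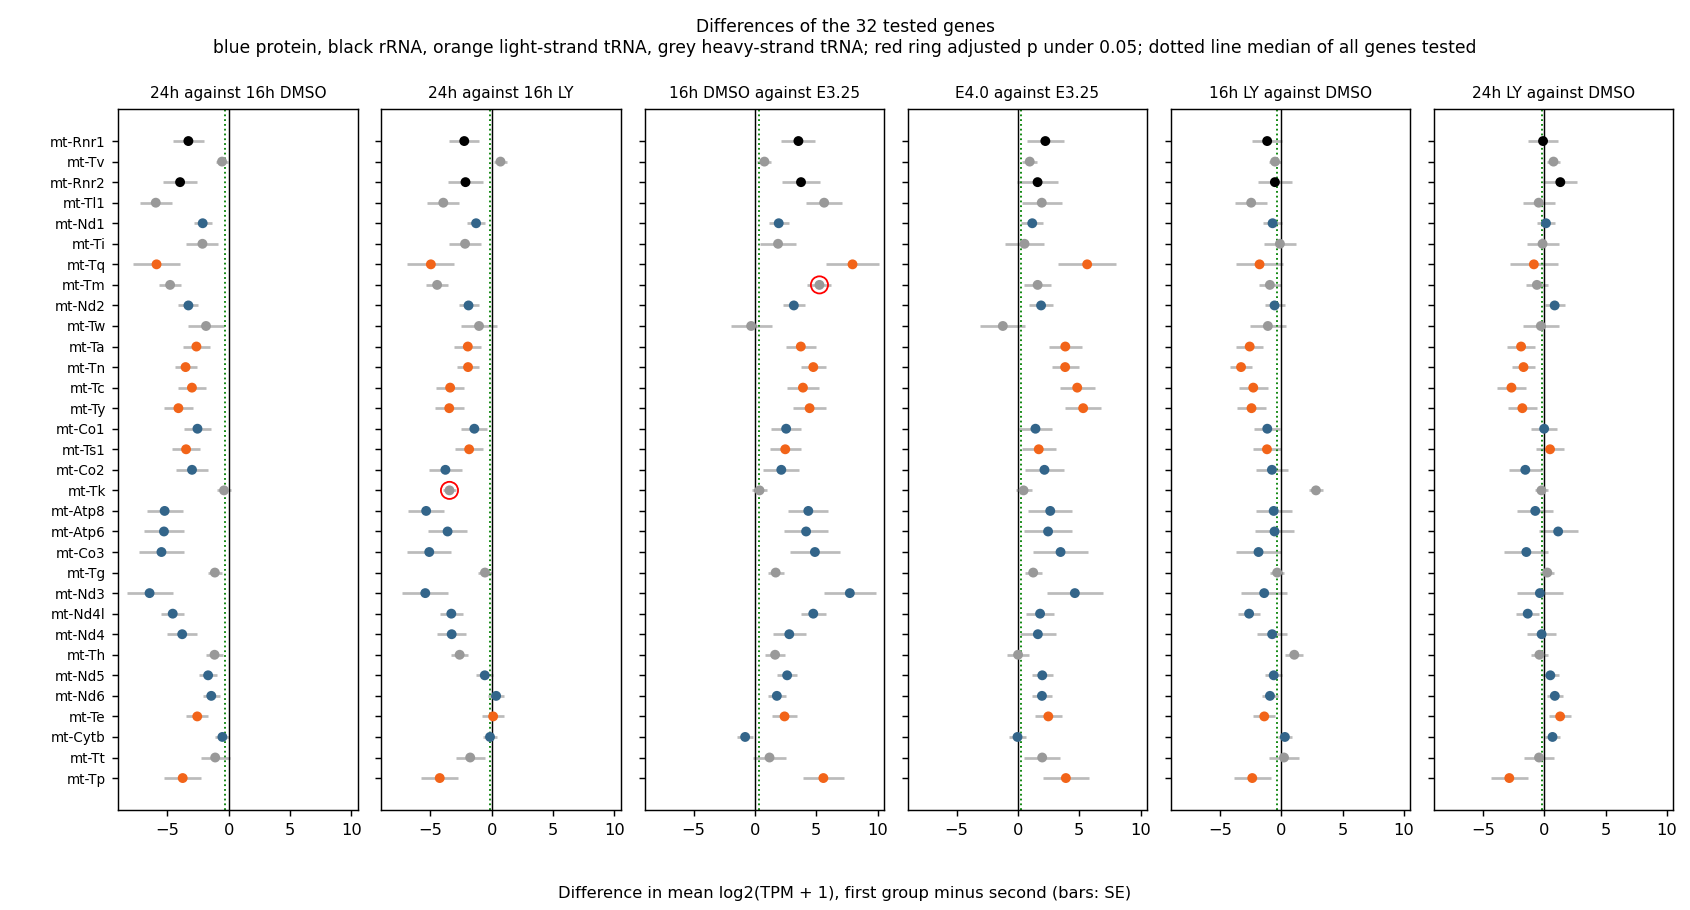
Difference in mean log2(TPM + 1) of the 32 tested genes in genome order for 6 comparisons, with the standard error as bars, coloured by class of gene. Red rings mark mt-Tk and mt-Tm, past the threshold, of which mt-Tk was tested only through 16h LY; between the culture times in DMSO all points lie left of 0, while mt-Cytb lies within 1 unit of 0 in all 6 panels.

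LY against DMSO gave no call among the members at either time. At 16 hours 0 of 32 passed in limma (0% of all genes), and at an unadjusted p under 0.05 1 was higher (0.411% of all genes) and 3 were lower (5.08%). mt-Tk stood at 2.34, 2.86 and 5.16 with LY and at 0.00, 1.17 and 0.67 with DMSO, without overlap, a difference that the filter favoured as well. Its size was 2.84 ± 0.54 (SE, adjusted p = 0.167), and without the first 16h LY experiment 3.39 (adjusted p = 0.0429). Cells of run 1 alone gave 4.21 and those of run 2 0.49 (adjusted p = 0.0595 and 0.953). mt-Tn stood at 7.06, 4.86 and 4.11 with LY and at 9.87, 8.10 and 7.87 with DMSO, a difference of -3.27 ± 0.90 (adjusted p = 0.689). mt-Nd4l differed by -2.62 ± 0.93 and mt-Ta by -2.57 ± 1.11 (adjusted p = 0.847 and 0.854). Experiment means did not overlap for 1 gene that was higher (1.35% of all genes) and for 5 that were lower, mt-Tn, mt-Nd4l, mt-Ta, mt-Tl1 and mt-Te (8.84%). All 8 light-strand tRNA genes had a lower mean with LY, with a median of -2.32, beside a median of -0.92 over the 32 members and -0.33 over all genes. Without the first 16h LY experiment 5 members were lower at an unadjusted p under 0.05, and without the first 24h DMSO experiment 6. With the date as a block, in the paired fit, 7 were lower and 1 higher.

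At 24 hours 0 of 32 passed in limma (0% of all genes), 1 was lower at an unadjusted p under 0.05 (4.55% of all genes) and 0 higher (0.719%), together 1 beside 5.27%, and 0 had means without overlap in either direction (2.26% of all genes higher, 8.64% lower). That gene was mt-Tc, at 1.54, 2.31 and 4.98 with LY and 2.64, 6.46 and 7.77 with DMSO. It differed by -2.68 ± 1.16 (adjusted p = 0.899), and mt-Tp, the proline tRNA gene, by -2.85 ± 1.51 and mt-Tn by -1.70 ± 0.90 (both adjusted p = 0.899). The 13 protein genes had a median difference of -0.01, and 6 had a higher and 7 a lower mean with LY. Without the first 24h DMSO experiment 8 of 32 were lower at an unadjusted p under 0.05, with a median of -1.26 against -0.26. Without the third 24h LY experiment 5 were lower, and without the second or the third 24h DMSO experiment the median was 0.32 or 0.41. With the log of the mean TPM it was 0.07. With the date as a block, in the paired fit, 6 were lower and 0 higher at an unadjusted p under 0.05. The LY effect at 24 hours minus that at 16 hours passed the threshold for 0 of 32 (0% of all genes), with mt-Tk at -3.07 and mt-Te at 2.67 having the smallest p (both adjusted p = 1.00), where the value of mt-Tk rests on the 16h LY level through which it was tested. At an unadjusted p under 0.05 they were 1 lower gene (0.890% of all genes) and 1 higher (1.60%), and with the date as a block 1 lower and 2 higher.

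Between fresh stages no member passed the threshold. From E3.25 to E3.75, 0 of 32 passed in limma (0% of all genes) and 5 were higher at an unadjusted p under 0.05 (1.48%, and 4.59% in both directions) and 0 lower (3.11%). The 5 were mt-Tn, mt-Ta, mt-Tc, mt-Ty and mt-Te, which are 5 of the 8 light-strand tRNA genes. The means of these 5, and of no other member, lay above all those of E3.25 without overlap (11.0% of all genes were higher so and 19.7% lower). mt-Tn stood at 2.73 and 4.99 at E3.25 and at 8.28 and 9.27 at E3.75, a difference of 4.91 ± 1.10 (SE, adjusted p = 0.671). mt-Ta stood at 4.06 and 6.14 and then at 9.44 and 10.19, and differed by 4.72 ± 1.36 (adjusted p = 1.00). mt-Tc stood at 3.77 and 5.64 and then at 10.24 and 8.15, a difference of 4.49 ± 1.42 (adjusted p = 1.00). Protein genes differed by a median of 0.31, with 8 higher and 5 lower means. Cells of run 1 alone left 2 of 32 higher at an unadjusted p under 0.05 and run 2 alone 3, without the first E3.25 experiment 2 were left and without the first E3.75 experiment 3. Without the second E3.75 experiment there were 8. The median of the 32 went from 0.58 to -0.42, -0.49 and 2.07 in these cases.

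From E3.25 to E4.0, 0 of 32 passed in limma, where 1.67% of all genes did, and 9 were higher at an unadjusted p under 0.05 (9.36% of all genes) and 0 lower (3.50%). Of these, 7 were light-strand tRNA genes and the others mt-Nd5 and mt-Nd6. mt-Ty stood at 4.40 and 5.15 at E3.25 and at 10.47 and 9.70 at E4.0, a difference of 5.31 ± 1.46 (adjusted p = 0.0756), while mt-Tn differed by 3.84 ± 1.10 and mt-Tc by 4.82 ± 1.42 (adjusted p = 0.0922 and 0.102). Means did not overlap and were higher for 13 of 32, against 26.4% of all genes. Without the first E4.0 or the first E3.25 experiment 3 were left at an unadjusted p under 0.05, without the second E4.0 experiment there were 14, and runs 1 and 2 alone gave 2 and 22. With the log of the mean TPM there were 2. Without the first 24h DMSO experiment mt-Ty and mt-Tc passed the threshold, as mt-Ta and mt-Tn did by cells of run 2. From E3.75 to E4.0, 0 of 32 passed (1.41% of all genes) and 0 had an unadjusted p under 0.05 (9.49%, with 8.38% higher). Means without overlap were higher for 2, mt-Tv and mt-Nd6 (27.9% of all genes), and lower for 3, mt-Ta, mt-Tn and mt-Tw (8.27%). The smallest p were those of mt-Tw, the tryptophan tRNA gene, at -3.34 ± 1.83, mt-Nd4l at 1.97 ± 1.14 and mt-Nd4 at 2.33 ± 1.48 (adjusted p = 0.615, 0.652 and 0.714). Without the second E3.75 experiment the median of the 32 went from 1.39 to -0.17, and without the first E4.0 experiment to 0.04. Without the first E3.75 experiment 13 were higher at an unadjusted p under 0.05, without the second E4.0 experiment 7, and by cells of run 2 alone 11.

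Cultured DMSO cells were set beside the fresh stage nearest in age. In 16h DMSO against E3.25, 30 of 32 had a higher mean, with a median of 2.98 against 0.32 over all genes. Among these 30 are mt-Tv and mt-Tg, tested only through 16h DMSO, and mt-Th, tested only through the 16h groups. The filter favoured a higher 16h value for them. Without the filter 33 of 37 had a higher and 3 a lower mean, with a median of 2.54. With it, 1 of 32 passed in limma (0.0514% of all genes), mt-Tm. It stood at 6.28, 5.75 and 4.74 in 16h DMSO and at 0.00 and 0.66 at E3.25, with a TPM of 1 or more in 23 of 31 and 1 of 19 cells. The difference was 5.26 ± 0.98 (SE, adjusted p = 0.0499), and the call was lost without any 1 experiment of either group (adjusted p = 0.0671 to 0.348). Cells of run 1 alone gave an adjusted p of 0.462 and those of run 2 gave 0.07. At an unadjusted p under 0.05, 22 were higher (11.4% of all genes) and 0 lower (2.32%), and means did not overlap and were higher for 24 (23.2%) and lower for 0 (6.93%). mt-Tg, which the filter favoured, is among these 24. mt-Tn differed by 4.76 ± 1.01 and mt-Tl1 by 5.64 ± 1.47 (adjusted p = 0.0913 and 0.161). mt-Nd4l differed by 4.76 ± 1.04 and mt-Nd3 by 7.74 ± 2.10 (adjusted p = 0.114 and 0.171), and mt-Cytb by -0.80 ± 0.65 (adjusted p = 0.583). Without the first E3.25 experiment 8 were higher at an unadjusted p under 0.05, cells of run 1 alone gave 12, the log of the mean TPM gave 4 and no filter gave 14. Without the first 24h DMSO experiment mt-Tn passed the threshold as well. E3.25 cells had 6235 ± 223 (SD, n = 2) genes with a TPM of 1 or more, below the 8084 of 16h DMSO, whose experiments ran from 7102 to 9995.

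In 24h DMSO against E3.75, 0 of 32 passed in limma (0% of all genes) and 6 were lower at an unadjusted p under 0.05 (1.24%). mt-Tn, mt-Ta and mt-Te had the smallest p, with differences of -3.67 ± 1.01, -3.61 ± 1.24 and -2.88 ± 0.99 (each adjusted p = 1.00). Means without overlap were lower for 6 (5.49% of all genes) and higher for 1 (12.5%). Both comparisons with E3.75 share its 2 experiments, and without the first 24h DMSO experiment 1 was lower, with the median of the 32 going from -0.65 to 0.44. Without the first E3.75 experiment 4 were lower with a median of 0.80, and by cells of run 2 alone 1 was lower. Culture time and the date of collection cannot be told apart in comparisons of the 16h groups.

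The 7 nuclear copies held from 0.129% (Gm28439) to 89.5% (Gm10222) of the TPM of copy and gene together. They made up 2.81% of TPM in the mean cell, and the summed share of members and copies ran from 0.373% to 44.2%. Gm28437 averaged 11148 TPM beside 3509 for mt-Co3, and was the higher of the pair in 158 of 169 cells. Gm10222 averaged 629 beside 73.8 for mt-Nd4l, Gm28661 6030 beside 7571 for mt-Co2, Gm10925 1302 beside 4533 for mt-Atp6 and Gm28438 633 beside 1956 for mt-Nd3. Gm29216, which copies the last 492 of 1545 bases of mt-Co1, averaged 8378 beside 7501. Gm28439, which copies the first 876 of 1378 bases of mt-Nd4 and lacks its 3′ end, averaged 1.91 beside 1480. Copy and member correlated across cells at 0.51 (Gm10222) to 0.88 (Gm28437). With the copies' TPM added to their members no count of calls among the members changed. All 7 copies were tested, and Gm28438 passed the threshold in 2 comparisons. It was higher at E4.0 than at E3.75 by 4.82 ± 1.17 and than at E3.25 by 5.01 ± 1.17 (SE, limma adjusted p = 0.0391 and 0.0282), comparisons that share the E4.0 experiments. Its member mt-Nd3 differed there by 2.58 ± 2.30 and 4.63 ± 2.30 (adjusted p = 0.848 and 0.411). In 24h against 16h DMSO Gm28438 differed by -5.05 ± 0.95 (adjusted p = 0.0617), and the other 6 copies by -4.76 to -1.45.

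The 10 other tested genes that tracked the summed share most closely over 169 cells, by Spearman correlation, were led by such copies. They were Gm28437 (0.884), Gm29216 (0.883), Gm10222 (0.820), Gm13341 (0.816), Gm13340 (0.814), Gm28661 (0.808), Gm13339 (0.804), Npm1 (0.724), Gm10925 (0.716) and Prdx1 (0.714). Gm13341, Gm13340 and Gm13339 are pseudogenes on chromosome 2 that share 224, 411 and 81 stretches of 50 bases with mt-Co2, mt-Co1 and mt-Nd2. Npm1 encodes nucleophosmin, a nucleolar protein, and Prdx1 a peroxiredoxin, and neither shares a 50-base stretch with a member. The summed share correlated at 0.36 with the number of genes detected over all cells, and at -0.22 to 0.64 within the 11 experiments of 9 or more cells. Protein and tRNA shares correlated at 0.86 over all cells and at 0.37 to 0.96 within those experiments.

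Summed levels of lineage markers did not follow the share closely, with correlations across cells of -0.39 for 8 epiblast genes, -0.01 for 10 primitive endoderm genes and -0.21 for 12 trophectoderm genes. Trophectoderm markers summed to 246 to 1175 TPM in the 16h DMSO experiments and to 268 to 393 TPM in those of 24h DMSO. At E3.25 they summed to 369 and 391 TPM. Of their 12 genes, Cdx2 and Elf5 reached 1 TPM in 18 and 2 of 169 cells. In contrast, Krt8, Krt18, Tfap2c and Fabp3 did so in 159, 138, 127 and 117 cells. The other genes of the list lay between, from 19 (Id2) to 88 cells (Ptges). The part of these markers in the results was not tested.

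Of the nuclear genes that copy, transcribe, cut and degrade mitochondrial nucleic acids, 43 were tested. 0 passed the threshold in any of the 10 limma comparisons (0% to 1.67% of all genes). At an unadjusted p under 0.05 there were 1 for LY against DMSO at 16 hours (5.49% of all genes) and 3 at 24 hours (5.27%). From E3.25 there were 4 to E3.75 (4.59%) and 8 to E4.0 (12.9%), and from E3.75 to E4.0 3 (9.49%). 24h against 16h gave 4 with DMSO (10.9%) and 4 with LY (9.39%). 16h DMSO against E3.25 gave 7 (13.7%), 24h DMSO against E3.75 2 (3.17%) and the difference of the LY effects 0 (2.49%). In 24h against 16h DMSO the median difference of the 43 was -0.41, beside -3.14 for the mitochondrial genes and -0.29 for all genes. Fastkd2, an RNA-binding protein of mitochondrial RNA granules, differed there by -2.42 ± 0.79 (SE), Trnt1, which adds the CCA end to tRNAs, by -1.75 ± 0.65 and Tfb2m, a factor that starts mitochondrial transcription, by -1.34 ± 0.58 (adjusted p = 0.341, 0.377 and 0.410). For 16h DMSO against E3.25 the median was 0.40, and Slirp, a partner of the messenger-stabilising protein Lrpprc, differed by 4.77 ± 1.54, Fastkd2 by 2.72 ± 0.88 and Tfb2m by 1.93 ± 0.65 (each adjusted p = 0.232). In 24h against 16h LY the median was -0.35, with Slirp at -3.47 and Prorp, the nuclease of mitochondrial RNase P, at -1.29 (both adjusted p = 0.449) and Top1mt, a mitochondrial topoisomerase, at -0.82 (adjusted p = 0.484). Between E3.25 and E4.0 the median was 0.28 and Fastkd2 differed by 3.62 ± 0.96 (adjusted p = 0.0615), Nrf1, a regulator of nuclear genes for respiration, by 2.96 and Cdk5rap1, a tRNA-modifying enzyme, by 1.64 (adjusted p = 0.157 and 0.264). From E3.75 to E4.0 Fastkd2 differed by 3.15, Grsf1, an RNA granule protein, by 2.52 and Elac2, which cuts the 3′ end of tRNAs, by 1.76 (adjusted p = 0.154, 0.396 and 0.517).

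In the remaining comparisons the same genes gave no call. LY against DMSO at 24 hours had a median of -0.33, with Polrmt, the mitochondrial RNA polymerase, at -2.485 ± 0.78, the nuclease gene Mgme1 at -1.18 and Top1mt at -0.73 (each limma adjusted p = 0.899). At 16 hours the median was -0.45, with Fastkd2 at -1.67, Gabpa, a factor for nuclear respiratory genes, at -1.26 and Tbrg4 at -1.26 (each adjusted p = 0.854). From E3.25 to E3.75 the exonuclease gene Pnpt1 differed by 1.48, Gtpbp3 by -1.80 and Elac2 by -1.85 (each adjusted p = 1.00). In 24h DMSO against E3.75 Pnpt1 differed by -1.18, the poly(A) polymerase gene Mtpap by -1.73 and Elac2 by 1.20 (each adjusted p = 1.00). For the difference between the LY effects Top1mt, Tfb2m and Fastkd2 stood at -0.92, 1.38 and 1.70 (each adjusted p = 1.00).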

How the data were processed

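Libraries of single inner cells came from 2 sequencing runs. A table of TPM values, which sum to a fixed total per cell, was deposited for the series, and its 170 columns were matched to samples by title. The labels describe 186 samples, and the 16 without a column were not analysed here. The submitters' processing notes name RSEM 1.3.3 and STAR 2.7.9a, cutadapt 2.9, bcl2fastq 2.20.0 and build mm10. Settings and the gene annotation are not given in the sources used here. Of the table's names, 53569 were found in GENCODE M21, which gave positions, lengths and sequences. A pair of E3.25 columns whose titles differ by a suffix correlated at 0.824, above any other pair of that experiment with either (0.783), and was averaged, leaving 169 cells. A second such pair, in the first 24h LY experiment, correlated at 0.594, below the highest of another pair of that experiment with either (0.724), and was kept as 2 cells, so 1 cell may count double there. Results without that experiment are given.

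Spike-ins (92 lines) stayed in the TPM total and out of tests. The log2(TPM + 1) values, with a pseudocount of 1, were averaged over the cells of an experiment. A gene was tested if 25% of the cells of any 1 group had a TPM of 1 or more (11680 genes). A fold change on this scale understates the change of low genes. All 18 means were fitted with limma 3.58.1 in R 4.3.3 with a trend, leaving 11 residual degrees of freedom, and p-values were adjusted by Benjamini and Hochberg's method in each of 10 comparisons. The script was tested on simulated data. Summaries used Python 3.11.15 and pandas 2.3.3.

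LY and DMSO arms share dates, so dates pair them. Deviations of the 2 arms of a date from their groups correlated at 0.393, 0.121 and 0.317 (16 hours) and 0.231, 0.12 and 0.073 (24 hours). The highest correlation with the opposite arm of another date was -0.125, 0.062 and 0.062 (16 hours) and -0.099, 0.112 and 0.112 (24 hours). On the third 24h date the arms thus deviated together no more than arms of unlike dates, and on the second hardly more. A fit with the date as a block was an alternative. Values by experiment are given for members past the threshold, for protein and rRNA genes, and for up to 3 tRNA genes of smallest p per comparison. Other genes named are the 7 nuclear copies, the 10 that best followed the summed share, and the 3 RNA-handling genes of smallest p per comparison. The members, gene lists and tests were chosen with earlier results of these data known.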

Additional observations from a re-analysis of the deposited data

How the results depend on the processing

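Counts of members past the threshold moved under these alternatives. For E4.0 against E3.25 the count went from 0 to 1 with quantile normalization and to 2 in cells of run 2. For 24h against 16h LY it went from 1 to 0 with a pseudocount of 0.1, with no filter on low values, with the log2 of the mean TPM, with quantile normalization and in run 2, and to 2 in run 1. For 16h DMSO against E3.25 it went from 1 to 0 with no filter, with the log2 of the mean TPM, with TPM rescaled without the members, in run 1 and in run 2. With the date as a replicate block, fitted for LY against DMSO, the paired count stayed 0 at both times and for the difference between them, while at an unadjusted p under 0.05 lower genes went from 3 to 7 at 16 hours and from 1 to 6 at 24 hours.

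Leaving out each experiment in turn gave counts of 0 to 2 for 16h DMSO against E3.25, 0 to 1 for 16h LY against DMSO, 0 to 1 for 24h against 16h DMSO, 0 to 2 for 24h against 16h LY and 0 to 2 for E4.0 against E3.25, and 0 for the other comparisons. Where this left an arm with 1 experiment, it was assumed to vary like the other groups. The difference in summed share, in percentage points, then ran from 1.96 to 9.76 for 16h DMSO against E3.25, -3.79 to -1.37 for 16h LY against DMSO, -9.46 to 2.07 for 24h DMSO against E3.75, -3.39 to 0.415 for 24h LY against DMSO, -7.48 to -3.67 for 24h against 16h DMSO, -5.70 to -3.28 for 24h against 16h LY, -2.40 to 9.12 for E3.75 against E3.25, 4.33 to 12.1 for E4.0 against E3.25 and -0.899 to 10.6 for E4.0 against E3.75.

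By run alone, it was 0.403 and 14.0 in runs 1 and 2 for E4.0 against E3.75, 0.620 and 18.6 in runs 1 and 2 for E4.0 against E3.25, and -7.53 and -2.13 for 24h against 16h LY. Other settings moved the difference in share by less than the spread between experiments, in 102 of 109 cases in all. Its sign turned in 6, each time without 1 experiment: 24h LY against DMSO (-0.864) was 0.415 without the second and 0.385 without the third 24h DMSO experiment, E3.75 against E3.25 (3.36) was -2.40 without the first E3.75 and -0.541 without the first E3.25 experiment, E4.0 against E3.75 (4.87) was -0.899 without the second E3.75 experiment, and 24h DMSO against E3.75 (-3.70) was 2.07 without the first E3.75 experiment. The direction of the 10 single-gene differences recomputed stayed in all 273 cases, with 29 calls lost and 6 gained. Adding the nuclear copies to the members, counting them in the share and leaving out mt-Ts1 were chosen after seeing the data. The cause of these shifts was not tested. Depth is unknown.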
